A study of Homo sapiens with 8 samples.

Results

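The genes described here are 7 metallothioneins (MT1E, MT1F, MT1G, MT1H, MT1M, MT1X and MT2A), the transcription factor gene MTF1 and the zinc exporter gene SLC30A1, 9 of the 38032 gene identifiers in the data. They were taken by symbol from a list, and 8 of them reached at least 10 counts in at least 2 of 8 libraries, as did 13943 genes in all. The libraries are polyadenylated RNA of HepG2, a line from a human hepatocellular carcinoma with wild-type genotype in the labels, after 8 days of culture. In 4 libraries the cells had grown on flat culture-ware (2D-primed) and in 4 on a porous, inert polystyrene membrane, Alvetex (3D-primed). Cells of both groups were described as released with trypsin before lysis for RNA. By the protocol described, scaffolds received more cells than flat wells of the same format, to favour layering. Substrate and seeding density therefore cannot be told apart. The growth medium described was minimal essential medium with non-essential amino acids, glutamine and foetal bovine serum, and no metal treatment is named for either group. All libraries come from 1 cell line, and the labels do not say whether replicates were separate cultures, so that p-values measure the spread between these samples, which may be technical.

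Metallothioneins are small cytosolic proteins, very rich in cysteine, whose thiols bind zinc, copper and cadmium. MTF1 is the zinc-sensing factor that binds metal response elements (MREs) before these genes and before SLC30A1, whose product moves zinc out of the cell across the plasma membrane. The liver is a major site of metallothionein expression, and human MT2A also carries a known glucocorticoid response element.

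The libraries held 21599630 to 27844077 counts. All 8 hepatocyte markers listed, ALB among them, passed the count minimum. Markers of other cell types summed to 11.0 to 18.1 CPM (counts scaled to library size, here after TMM normalisation) for fibroblasts and stellate cells, with THY1 at 0 in all libraries and most of the sum from PDGFRB, to 4.16 to 7.76 CPM for endothelial cells, with STAB2 at 0, and to 32.8 to 76.2 CPM for blood cells, with CD3E at 0 and the sum mostly CD68. These sums moved with the groups. In 3D-primed against 2D-primed libraries the blood cell sum was lower (32.8 to 42.9 against 73.9 to 76.2 CPM), the fibroblast and stellate sum higher (15.1 to 18.1 against 11.0 to 12.2 CPM) and the hepatocyte sum higher (84070 to 94760 against 59470 to 65090 CPM), while the endothelial sums overlapped. Of single markers of these other cell types, PDGFRB, VWF and CD14 were called higher and CD68, CDH5 and COL1A1 lower. Of the 8 hepatocyte markers, 6 were called higher and 2 lower (APOB and SERPINA1). The part of these markers in the results was not tested. Genes of mitochondrial DNA took 1.40 to 1.81% of the counts in 2D-primed and 2.47 to 2.98% in 3D-primed libraries.

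The coding sequences show how alike these genes are. Those of MT2A, MT1M, MT1F and MT1X are shown because MT2A fell, MT1M and MT1F rose and MT1X did not pass the test. They were read from GENCODE release 44 (GRCh38), 5′ to 3′ with the stop codon, and capitals mark the bases that differ from MT2A at the same position.
MT2A: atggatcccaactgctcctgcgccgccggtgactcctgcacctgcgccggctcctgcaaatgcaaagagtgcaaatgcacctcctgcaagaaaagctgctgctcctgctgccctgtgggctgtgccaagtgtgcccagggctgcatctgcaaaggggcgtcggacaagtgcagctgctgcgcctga
MT1M: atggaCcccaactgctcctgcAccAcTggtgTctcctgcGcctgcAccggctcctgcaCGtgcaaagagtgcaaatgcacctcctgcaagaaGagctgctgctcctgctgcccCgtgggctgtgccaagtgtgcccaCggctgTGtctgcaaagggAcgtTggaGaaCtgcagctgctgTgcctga
MT1F: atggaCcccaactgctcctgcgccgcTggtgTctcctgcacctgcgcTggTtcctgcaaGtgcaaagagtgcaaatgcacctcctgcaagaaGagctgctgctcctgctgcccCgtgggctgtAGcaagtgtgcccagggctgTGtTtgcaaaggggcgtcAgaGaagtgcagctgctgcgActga
MT1X: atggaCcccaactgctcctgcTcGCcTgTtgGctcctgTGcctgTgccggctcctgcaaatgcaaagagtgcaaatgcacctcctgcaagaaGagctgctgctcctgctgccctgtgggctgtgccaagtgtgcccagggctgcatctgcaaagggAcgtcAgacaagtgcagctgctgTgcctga
Each of these frames holds 61 codons before the stop, and 20 of the codons (TGC or TGT) encode cysteine. MT1M differed from MT2A at 19 of 186 bases (89.8% identity), MT1F at 16 (91.4%) and MT1X at 14 (92.5%). MT1E, read from its transcript with a 61-codon frame, also differed from MT2A at 14 bases, and MT1H at 15. Among the 6 genes of this length, identity ran from 88.7% (MT1F and MT1X) to 93.0% (MT1E and MT1H, MT1H and MT1X). MT1G has 62 codons, again 20 of them for cysteine, and was not aligned to the others.

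Because the genes are so alike, reads can be split between them. Of the 31-base words in the canonical transcript, 41.4% also occurred in a transcript of another gene for MT1H, 31.1% for MT1G, 24.8% for MT2A, 23.0% for MT1X, 21.1% for MT1E, 18.5% for MT1M and 13.9% for MT1F. The canonical transcript of MT1E keeps intron sequence, and the value for its 61-codon transcript was 13.7%. MTF1 shared 1.85% of its words and SLC30A1 none. No stretch as long as a sequencing read was shared with another gene for any of the 9 genes. By percent and among the 7 metallothioneins, MT1G and MT1X shared the most with each other, whereas MT2A shared 0.539% of its words with MT1M. Outside these 7, MT1H shared 28.6% of its words with MT1HL1, which had no count, and MT2A 15.9% with the pseudogene MT2P1, which had at most 1 count in any library. MT1A, also outside them, had 92 to 167 counts per library. The words shared with it ran from 0.698% for MT1E to 11.5% for MT1X, with 6.47% for MT2A. Sharing was not measured for the transcript of MT1A itself. Counts of single metallothioneins are therefore uncertain to the extent that reads came from the shared stretches, while splitting among the 7 leaves their sum unchanged.

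**Figure D1:**
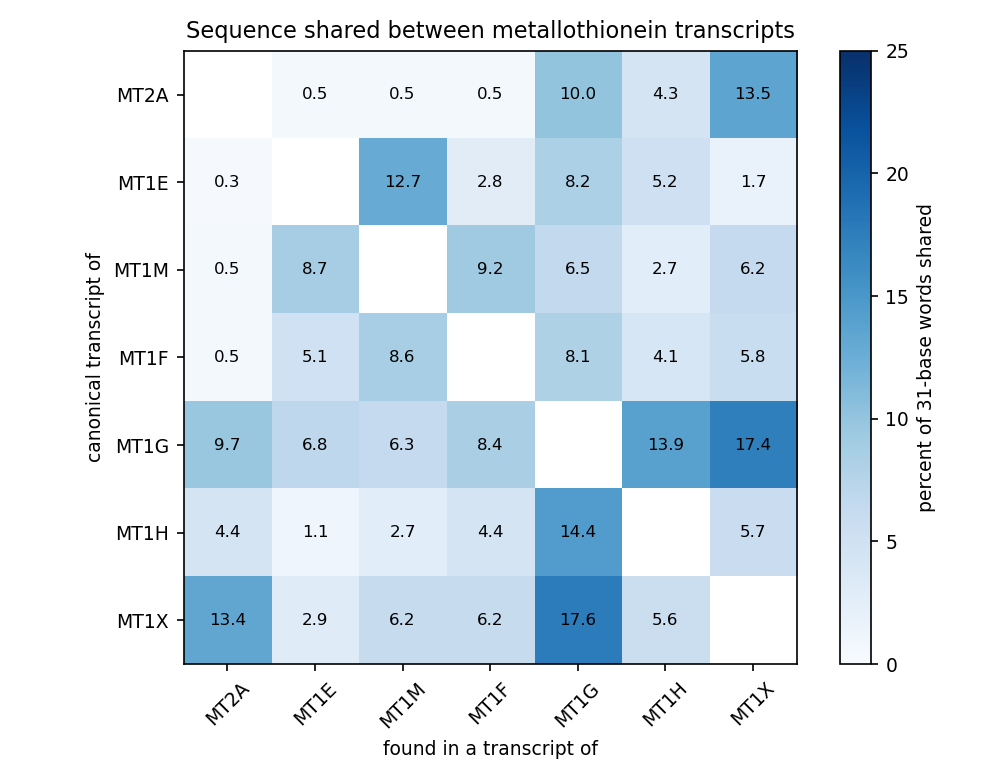
Each cell gives the percent of the 31-base words in the canonical transcript of the row gene that also occur in a transcript of the column gene, coloured from 0 to 25%. MT1G and MT1X share the most with each other (17.4 and 17.6%), and MT2A shares 13.5% with MT1X and 0.539% with MT1E, MT1F and MT1M.

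The promoter sequences are given for MT2A, MT1X and SLC30A1, a gene that fell, a gene that was not called and the exporter, which rose. They are the 250 bases before the RefSeq gene start (GRCh38.p14), 5′ to 3′ on the strand of the gene. Capitals mark matches to the MRE core TGCACNC or TGCGCNC on either strand. The 3 stretches lie at chr16:56608334-56608583 (plus strand), chr16:56682220-56682469 (plus strand) and chr1:211579162-211579411 (minus strand).
MT2A: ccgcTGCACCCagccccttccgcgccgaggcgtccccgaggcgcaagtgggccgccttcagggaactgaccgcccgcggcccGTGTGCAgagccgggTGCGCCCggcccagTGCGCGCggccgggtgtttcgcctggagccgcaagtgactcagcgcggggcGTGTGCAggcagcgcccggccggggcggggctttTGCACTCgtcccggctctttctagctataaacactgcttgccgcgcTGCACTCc
MT1X: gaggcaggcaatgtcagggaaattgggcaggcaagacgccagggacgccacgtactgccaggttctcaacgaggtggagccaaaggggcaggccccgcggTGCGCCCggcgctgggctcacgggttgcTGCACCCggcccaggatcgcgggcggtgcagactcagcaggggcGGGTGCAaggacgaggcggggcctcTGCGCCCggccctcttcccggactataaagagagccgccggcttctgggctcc
SLC30A1: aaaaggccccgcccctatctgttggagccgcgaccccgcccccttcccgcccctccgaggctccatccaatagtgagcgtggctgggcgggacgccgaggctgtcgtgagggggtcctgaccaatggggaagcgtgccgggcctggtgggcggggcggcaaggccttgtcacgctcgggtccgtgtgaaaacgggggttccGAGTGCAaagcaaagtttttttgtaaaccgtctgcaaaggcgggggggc
MT2A held 7 matches, MT1X 4 and SLC30A1 1, none of them overlapping another. At least 7 matches were found in 0.0313% of the 35116 promoters searched, at least 4 in 0.370% and at least 1 in 24.8%. MT1H, which was hardly expressed, held 8, a number reached by 0.0171% of promoters, and these letters were not found in the window of MTF1. Promoters of MT1E, MT1F, MT1G and MT1M were not analysed here. A match is a description of the sequence and no evidence of binding.

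Comparing 3D-primed with 2D-primed cells addressed whether expression of these genes differed between the scaffold cultures and the flat cultures, which also differed in seeding density. MT2A, the most abundant metallothionein, and MTF1 were lower in 3D-primed cells, whereas MT1E, MT1F, MT1G, MT1M and SLC30A1 were higher and MT1X did not pass the test. By edgeR's quasi-likelihood test with a Benjamini-Hochberg adjusted p under 0.05, 7 of the 8 genes were called, where 63.9% of all 13943 genes tested were called. The 5 higher genes stand beside 32.4% of all genes called higher, and the 2 lower genes beside 31.6% called lower. The groups did not overlap in the same 7 genes, where this held for 59.8% of all genes tested. The median log2 fold change (3D-primed over 2D-primed) was 0.996 over the 6 tested metallothioneins of the list and 0.0133 over all genes. These 6 ran from -0.70 (MT2A) to 2.43 (MT1M). MT1A, a tested locus outside the list, had -0.42 and is not part of this median. In bulk RNA, fewer expressing cells and less RNA per cell cannot be told apart.

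**Figure D2:**
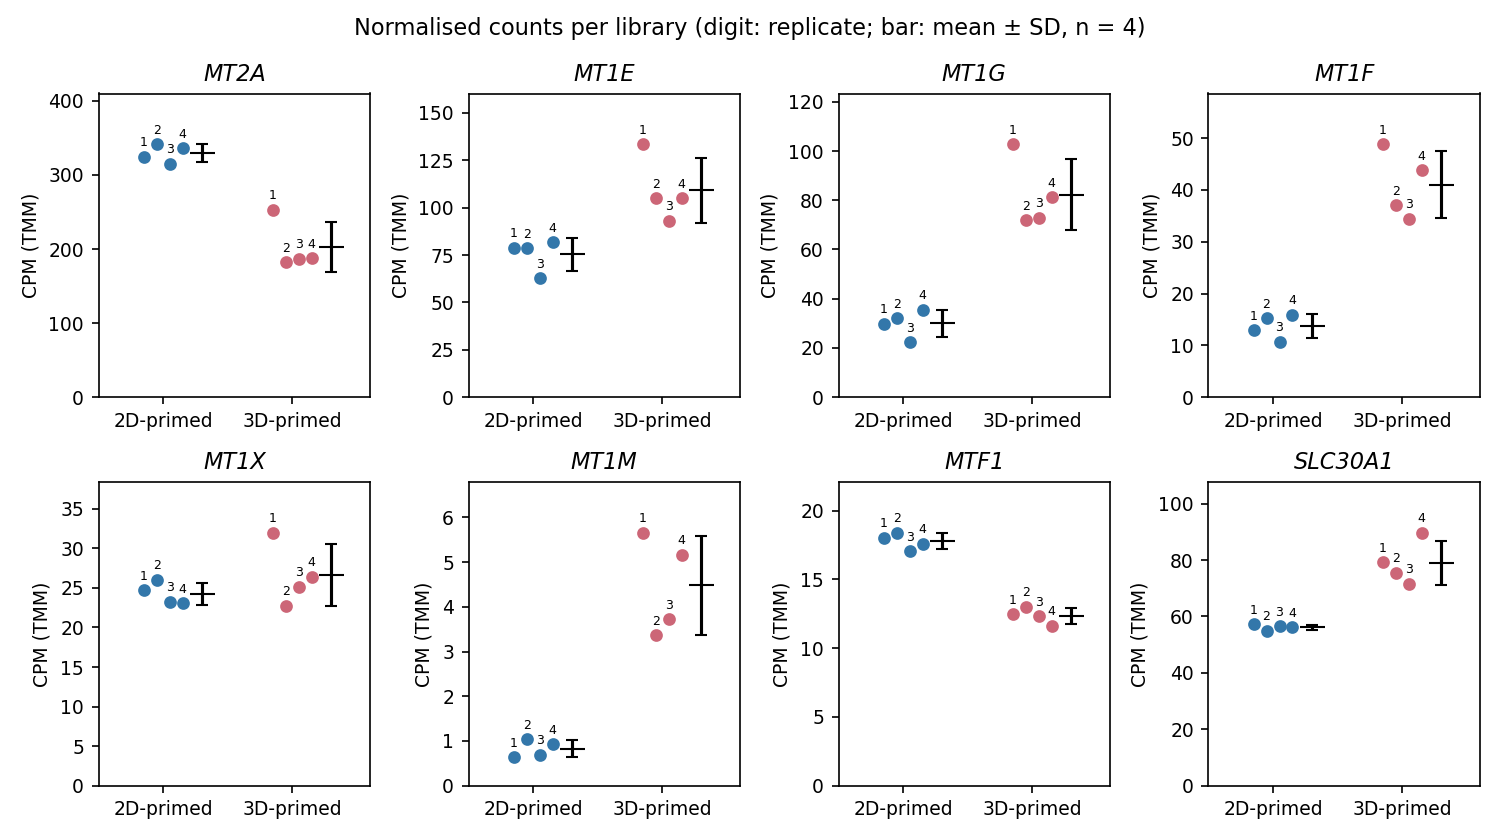
Normalised counts (CPM, y axis from 0) of the 8 tested genes in each library, with the replicate number above each point and the mean ± SD (n = 4) beside each group. MT2A and MTF1 lie lower and MT1E, MT1G, MT1F, MT1M and SLC30A1 higher in 3D-primed libraries without overlap, the MT1X groups overlap, and 3D-primed replicate 1 is the highest of its group in each of the 6 metallothioneins.

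MT2A (ENSG00000125148) encodes a widely expressed metallothionein and lies at chr16:56608584-56609497 on the plus strand. Its level was 325, 342, 315 and 336 CPM in 2D-primed replicates 1 to 4 and 253, 182, 187 and 188 CPM in 3D-primed replicates 1 to 4. Every 3D-primed library was below every 2D-primed library, and 3D-primed replicate 1 lay well above the other 3 of its group. The mean fell from 329 ± 11.9 to 203 ± 33.9 CPM (SD, n = 4), a log2 fold change of -0.70 ± 0.0964 (SE; edgeR, Benjamini-Hochberg adjusted p = 1.0e-04). This is 1.62-fold less, with a 95% interval of the log2 fold change from -0.92 to -0.49. Without 3D-primed replicate 1 it was -0.83.

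MT1M (ENSG00000205364, chr16:56632659-56633981, plus strand) is a metallothionein of the same cluster and had the lowest CPM of the tested metallothioneins. It had 14 to 24 counts per library in 2D-primed and 76 to 150 in 3D-primed cells. Its level was 0.641, 1.04, 0.692 and 0.928 CPM in 2D-primed replicates and 5.66, 3.36, 3.73 and 5.16 CPM in 3D-primed replicates. The groups were far apart, with every 3D-primed library above every 2D-primed one. MT1M rose 5.40-fold, from 0.825 ± 0.189 to 4.48 ± 1.11 CPM (log2 fold change 2.43 ± 0.23 SE; edgeR, Benjamini-Hochberg adjusted p = 7.0e-06). Only 0.653% of all genes tested had a higher log2 fold change.

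MT1F (ENSG00000198417, chr16:56657731-56660698, plus strand) was next by size of change. Its 2D-primed libraries had 12.9, 15.2, 10.7 and 16.0 CPM, and its 3D-primed libraries 48.9, 37.0, 34.5 and 43.8 CPM. The lowest 3D-primed library was above the highest 2D-primed library. The mean rose 3.00-fold from 13.7 ± 2.36 to 41.1 ± 6.53 CPM, with a log2 fold change of 1.58 ± 0.139 (SE; edgeR, Benjamini-Hochberg adjusted p = 4.2e-06), and 2.09% of genes tested had a higher one.

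MT1G (ENSG00000125144, chr16:56666730-56668065) is the member of the cluster that lies on the minus strand. Its values were 29.9, 32.0, 22.4 and 35.6 CPM in 2D-primed and 103, 72.0, 72.8 and 81.2 CPM in 3D-primed libraries. The groups did not overlap, and the spread among 3D-primed libraries came mainly from replicate 1. MT1G rose 2.75-fold from 30.0 ± 5.58 to 82.2 ± 14.4 CPM (log2 fold change 1.46 ± 0.148 SE; edgeR, Benjamini-Hochberg adjusted p = 1.1e-05).

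MT1E (ENSG00000169715, chr16:56625475-56627112, plus strand) had the highest CPM of the MT1 genes. It had 78.9, 78.5, 62.6 and 81.8 CPM in 2D-primed and 133, 105, 93.2 and 105 CPM in 3D-primed libraries. The groups lay apart, by less than the range within either group. The mean rose 1.45-fold from 75.4 ± 8.66 to 109 ± 17.1 CPM (log2 fold change 0.53 ± 0.113 SE; edgeR, Benjamini-Hochberg adjusted p = 0.0019).

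MT1X (ENSG00000187193, chr16:56682470-56684196, plus strand) lies at the far end of the cluster. It had 24.7, 26.1, 23.2 and 23.0 CPM in 2D-primed and 32.0, 22.8, 25.1 and 26.4 CPM in 3D-primed libraries. The groups overlapped, and 3D-primed replicate 1 was the highest of all 8 libraries. The log2 fold change was 0.13 with a 95% interval from -0.08 to 0.34, and it did not pass the test (edgeR, Benjamini-Hochberg adjusted p = 0.24). Without 3D-primed replicate 1 it was 0.03. MT1H (ENSG00000205358, chr16:56669814-56671129, plus strand) had 0, 2, 1 and 3 counts in 2D-primed and 5, 3, 3 and 5 counts in 3D-primed libraries, below the count minimum, and was not tested.

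The 13 other annotated metallothionein loci contributed little. MT1A (chr16:56638666-56640087, plus strand) had 7.06, 5.88, 6.27 and 6.92 CPM in 2D-primed and 6.30, 4.07, 4.52 and 4.61 CPM in 3D-primed libraries. Its groups overlapped through 3D-primed replicate 1. The log2 fold change was -0.42 ± 0.139 (SE; edgeR, Benjamini-Hochberg adjusted p = 0.022), and the call was lost without 2D-primed replicate 1 or 4 or 3D-primed replicate 2, 3 or 4, with edgeR adjusted p from 0.050 to 0.060. MT1B, MT1L, MT1JP, MT1DP and MT4 had at most 6 counts in any library, and MT3, known from brain, was among the 7 loci at 0 in all 8.

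**Figure D3:**
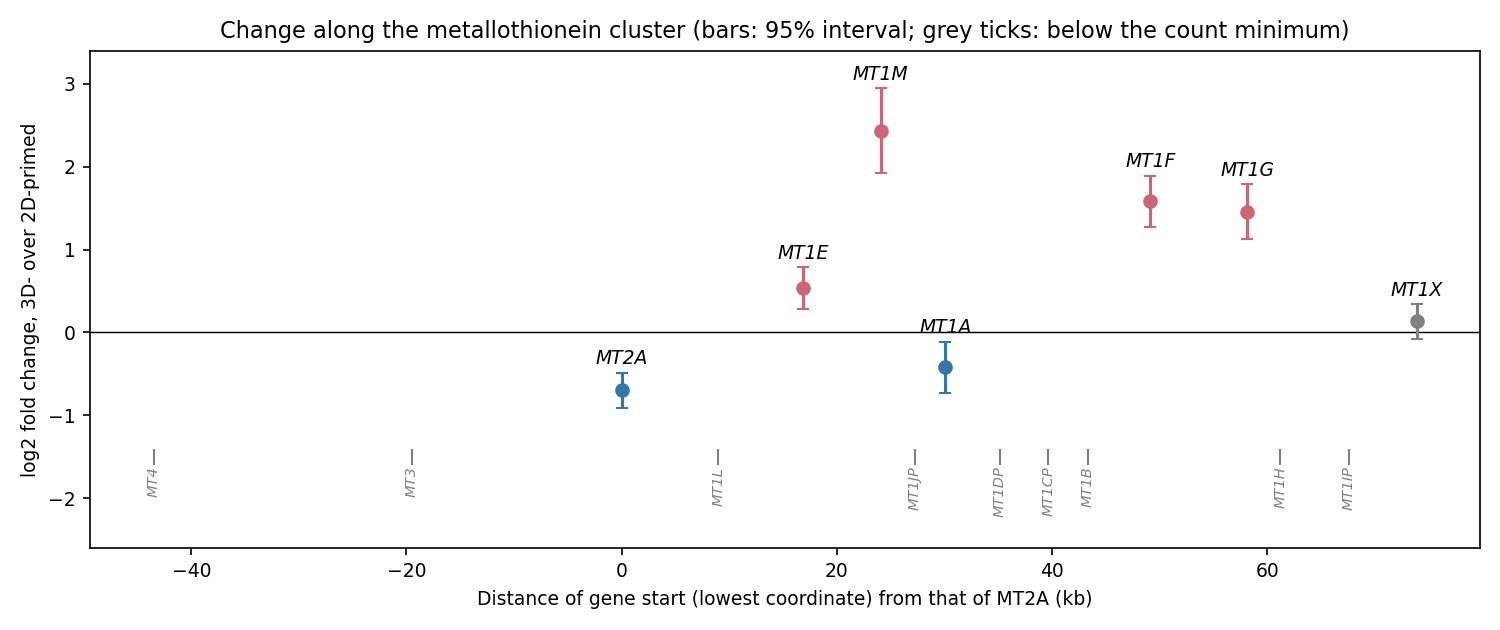
Log2 fold change (3D-primed over 2D-primed, points with 95% intervals) of each tested metallothionein gene on chromosome 16 against the distance of its start from that of MT2A in kb, with red for called higher, blue for called lower, grey for not called and ticks for genes below the count minimum. MT1M, called higher, and MT1A, called lower, start at 24.1 and 30.1 kb, whereas MT2A at 0 kb is lower and MT1X at 73.9 kb was not called.

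The direction was not uniform along the cluster. From MT2A, which fell, the tested genes in order were MT1E and MT1M, both higher, MT1A, lower with the unstable call given above, MT1F and MT1G, both higher, and MT1X, not called. The whole stretch from the start of MT2A to that of MT1X covers 73.9 kb.

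Summed over the 7 metallothioneins, the level was 472, 495, 435 and 494 CPM in 2D-primed and 576, 423, 416 and 449 CPM in 3D-primed libraries. The 3D-primed values spread on both sides of the 2D-primed ones, with replicate 1 the highest of all and the other 3 at or below the middle of the 2D-primed range. The means were 474 ± 27.9 and 466 ± 74.9 CPM, with a log2 fold change of -0.02 (95% interval -0.24 to 0.19; edgeR, Benjamini-Hochberg adjusted p = 0.85). Its sign turned with total counts (0.0038) or upper quartile scaling (0.027) in place of TMM. Without 3D-primed replicate 1 the sum was called lower, with a log2 fold change of -0.15 (edgeR, Benjamini-Hochberg adjusted p = 0.040).

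The 6 listed MT1 genes, without MT2A, summed to 147, 153, 120 and 157 CPM in 2D-primed and 323, 240, 230 and 262 CPM in 3D-primed libraries. MT1A, one of the other loci and called lower, was not part of this sum. These groups did not overlap. The sum rose 1.83-fold, from 144 ± 16.9 to 264 ± 41.8 CPM (log2 fold change 0.87 ± 0.114 SE; edgeR, Benjamini-Hochberg adjusted p = 7.6e-05), and by 0.75 on the log2 scale without 3D-primed replicate 1.

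The composition of the metallothionein counts separated the groups. MT2A made up 68.8, 69.1, 72.5 and 68.1% of the summed counts in 2D-primed libraries and 44.0, 43.2, 44.9 and 41.8% in 3D-primed libraries. In 3D-primed replicate 1, whose summed level stood apart, the share of MT2A lay within the range of the other 3. MT2A lost 26.2 percentage points (two-sided exact permutation test, p = 0.029, the smallest that 4 against 4 can give, unadjusted, 6 genes tested).

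MT1G gained 11.3 percentage points, from 6.29 ± 0.856 to 17.6 ± 0.449%. MT1E gained 7.54 points (15.9 ± 1.06 to 23.4 ± 1.02%), MT1F 5.94 points (2.88 ± 0.341 to 8.82 ± 0.653%) and MT1M 0.782 points (0.173 ± 0.0324 to 0.955 ± 0.149%). The share of MT1X was 5.24, 5.27, 5.34 and 4.67% in 2D-primed and 5.55, 5.38, 6.04 and 5.87% in 3D-primed libraries, a narrow separation of 0.582 points between the means. For each of these 5 genes the groups did not overlap and the two-sided exact permutation p was 0.029, and the shares are not independent of each other because they add up to the whole. The ratio of MT2A to the summed MT1 counts was 2.21, 2.23, 2.63 and 2.14 in 2D-primed and 0.785, 0.760, 0.814 and 0.718 in 3D-primed libraries (p = 0.029, exact permutation test, two-sided). In counts, MT2A thus lay above the summed MT1 genes in all 2D-primed libraries and below them in all 3D-primed libraries. These counts were not divided by transcript length, so they do not rank numbers of transcripts. MT1A was not part of the summed MT1 counts.

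**Figure D4:**
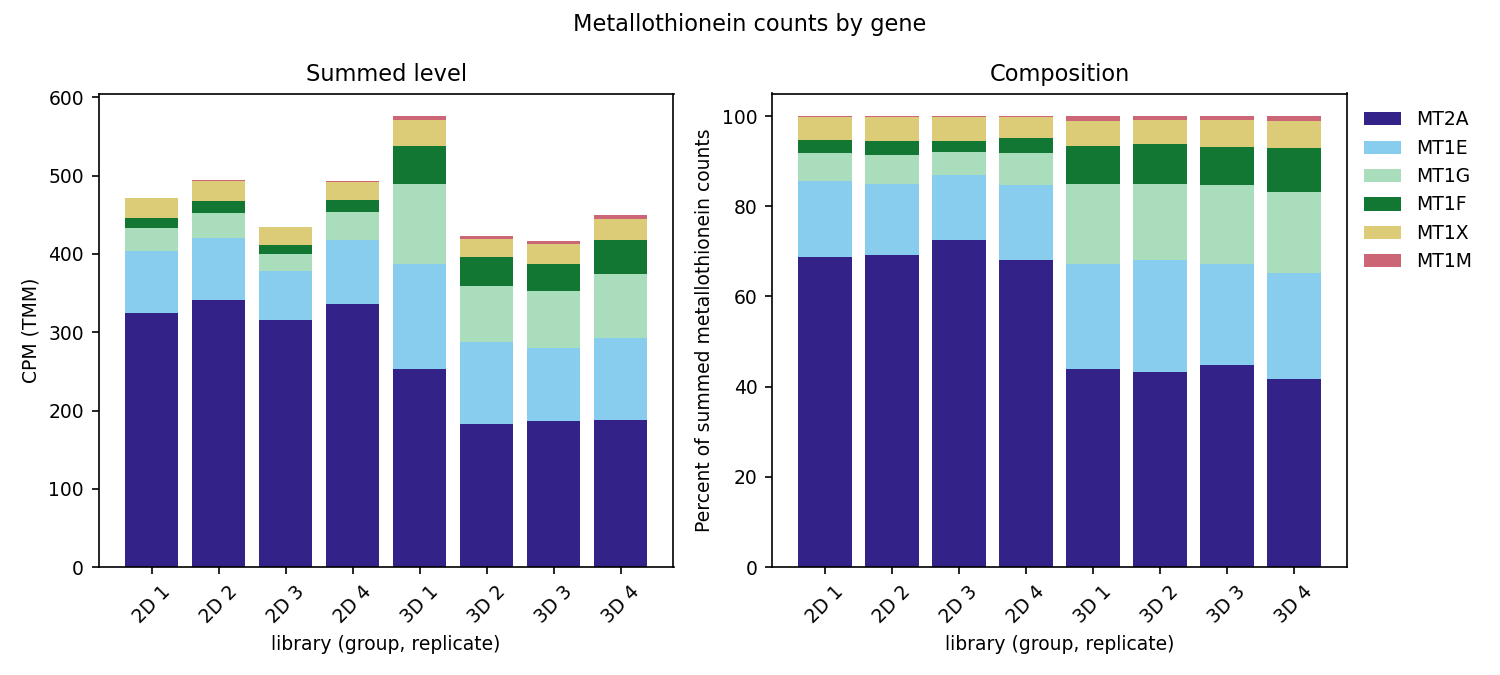
Metallothionein counts of each library stacked by gene, on the left as CPM and on the right as percent of the summed metallothionein counts, with MT1H left out of the bars because it had at most 5 counts. The total is highest in 3D-primed replicate 1 (576 CPM), whereas the share of MT2A is 68.1 to 72.5% in 2D-primed and 41.8 to 44.9% in 3D-primed libraries.

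Levels of different genes were compared per kilobase of exon (CPM divided by the length of the union of annotated exons). In 2D-primed cells MT2A had 360 ± 13.0 CPM per kb, followed by MT1E (71.7 ± 8.23), MT1G (39.9 ± 7.43), MT1X (14.0 ± 0.818), SLC30A1 (9.54 ± 0.152), MT1F (7.40 ± 1.27), MTF1 (2.23 ± 0.0737), MT1M (1.61 ± 0.370) and MT1H (0.0877 ± 0.0760). No 2 neighbours in this order overlapped across the 4 libraries. In 3D-primed cells the order was MT2A (222 ± 37.1 CPM per kb), MT1G (109 ± 19.1), MT1E (104 ± 16.3), MT1F (22.2 ± 3.53), MT1X (15.4 ± 2.27), SLC30A1 (13.4 ± 1.33), MT1M (8.76 ± 2.16), MTF1 (1.55 ± 0.0713) and MT1H (0.217 ± 0.0606). MT1G could not be told from MT1E there, nor MT1X from SLC30A1, since their values overlapped. The length used moves these levels. Over the canonical transcript MT2A had 821, MT1X 60.0 and MT1F 32.3 CPM per kb in 2D-primed cells, which placed MT1F above SLC30A1. With that length, neighbours overlapped in 2D-primed cells for MT1E (101 CPM per kb) and MT1G (73.1), MT1G and MT1X, and MTF1 and MT1M.

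MTF1 (ENSG00000188786, chr1:37809574-37859592, minus strand) encodes the zinc-sensing activator of these genes. It had 18.1, 18.4, 17.1 and 17.6 CPM in 2D-primed and 12.5, 13.0, 12.3 and 11.6 CPM in 3D-primed libraries. Both groups were tight and lay well apart. MTF1 fell 1.44-fold from 17.8 ± 0.589 to 12.4 ± 0.570 CPM (log2 fold change -0.52 ± 0.0549 SE; edgeR, Benjamini-Hochberg adjusted p = 1.5e-05).

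SLC30A1 (ENSG00000170385, chr1:211571568-211579161, minus strand) encodes the zinc exporter of the plasma membrane. It had 57.2, 55.0, 56.4 and 56.2 CPM in 2D-primed and 79.3, 75.5, 71.5 and 89.7 CPM in 3D-primed libraries. The 2D-primed libraries were nearly equal, all 3D-primed libraries were higher, and the highest was replicate 4 rather than replicate 1. SLC30A1 rose 1.41-fold from 56.2 ± 0.896 to 79.0 ± 7.81 CPM (log2 fold change 0.49 ± 0.0637 SE; edgeR, Benjamini-Hochberg adjusted p = 6.9e-05).

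The other genes of zinc transport moved in both directions. The SLC30 family mostly carries zinc out of the cytosol, although SLC30A10 is known mainly as a manganese exporter and SLC30A9 acts in mitochondria. Of its 9 other genes, 6 were tested, 5 were called higher in 3D-primed cells (SLC30A3, SLC30A5, SLC30A6, SLC30A9 and SLC30A10) and none lower, beside 32.4% of all genes called higher (median log2 fold change 0.305 against 0.0133 over all genes). With 10 counts required in all 8 libraries, SLC30A3 left the test and 4 were called. SLC30A3, known for loading synaptic vesicles, rose 3.25-fold from 0.420 ± 0.0954 to 1.38 ± 0.357 CPM, with 7 to 46 counts per library (edgeR, Benjamini-Hochberg adjusted p = 3.7e-04). SLC30A9 rose 1.84-fold from 25.8 ± 1.80 to 47.6 ± 2.42 CPM (edgeR, Benjamini-Hochberg adjusted p = 6.2e-07). SLC30A5, an exporter of the secretory pathway, rose 1.25-fold from 36.4 ± 1.02 to 45.3 ± 1.36 CPM (edgeR, Benjamini-Hochberg adjusted p = 4.5e-05). SLC30A7, the tested gene of the list that was not called, had a log2 fold change of -0.01.

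Of 14 SLC39 genes, which bring zinc into the cytosol, 12 were tested, 3 were called higher (SLC39A3, SLC39A5 and SLC39A14) and 6 lower, so that 9 of 12 were called beside 63.9% of all genes (median log2 fold change -0.137). SLC39A14, a liver carrier of zinc, iron and manganese, had 839, 815, 754 and 818 CPM in 2D-primed and 1467, 1279, 1205 and 1521 CPM in 3D-primed libraries. It was the most abundant of the zinc transporters listed by CPM, and its groups did not overlap. It rose 1.70-fold (log2 fold change 0.76 ± 0.0734 SE; edgeR, Benjamini-Hochberg adjusted p = 8.0e-06). SLC39A5 rose 1.47-fold from 75.6 ± 6.80 to 111 ± 4.85 CPM (edgeR, Benjamini-Hochberg adjusted p = 2.7e-05), whereas SLC39A6 fell 1.27-fold from 66.9 ± 2.56 to 52.8 ± 1.01 CPM (edgeR, Benjamini-Hochberg adjusted p = 2.6e-05). SLC39A4, SLC39A7 and SLC39A8 were not called, and SLC39A7 was listed at 0 in 2D-primed replicate 1 and at 20.8 to 53.1 CPM in the other 7 libraries. SLC39A7 lies in the major histocompatibility region of chromosome 6, for which transcript sets can carry further copies under other identifiers. The files hold 3055 identifiers that the annotation used here does not, and their counts were not added, so that the 0 and the missing call for this gene are uncertain.

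**Figure D5:**
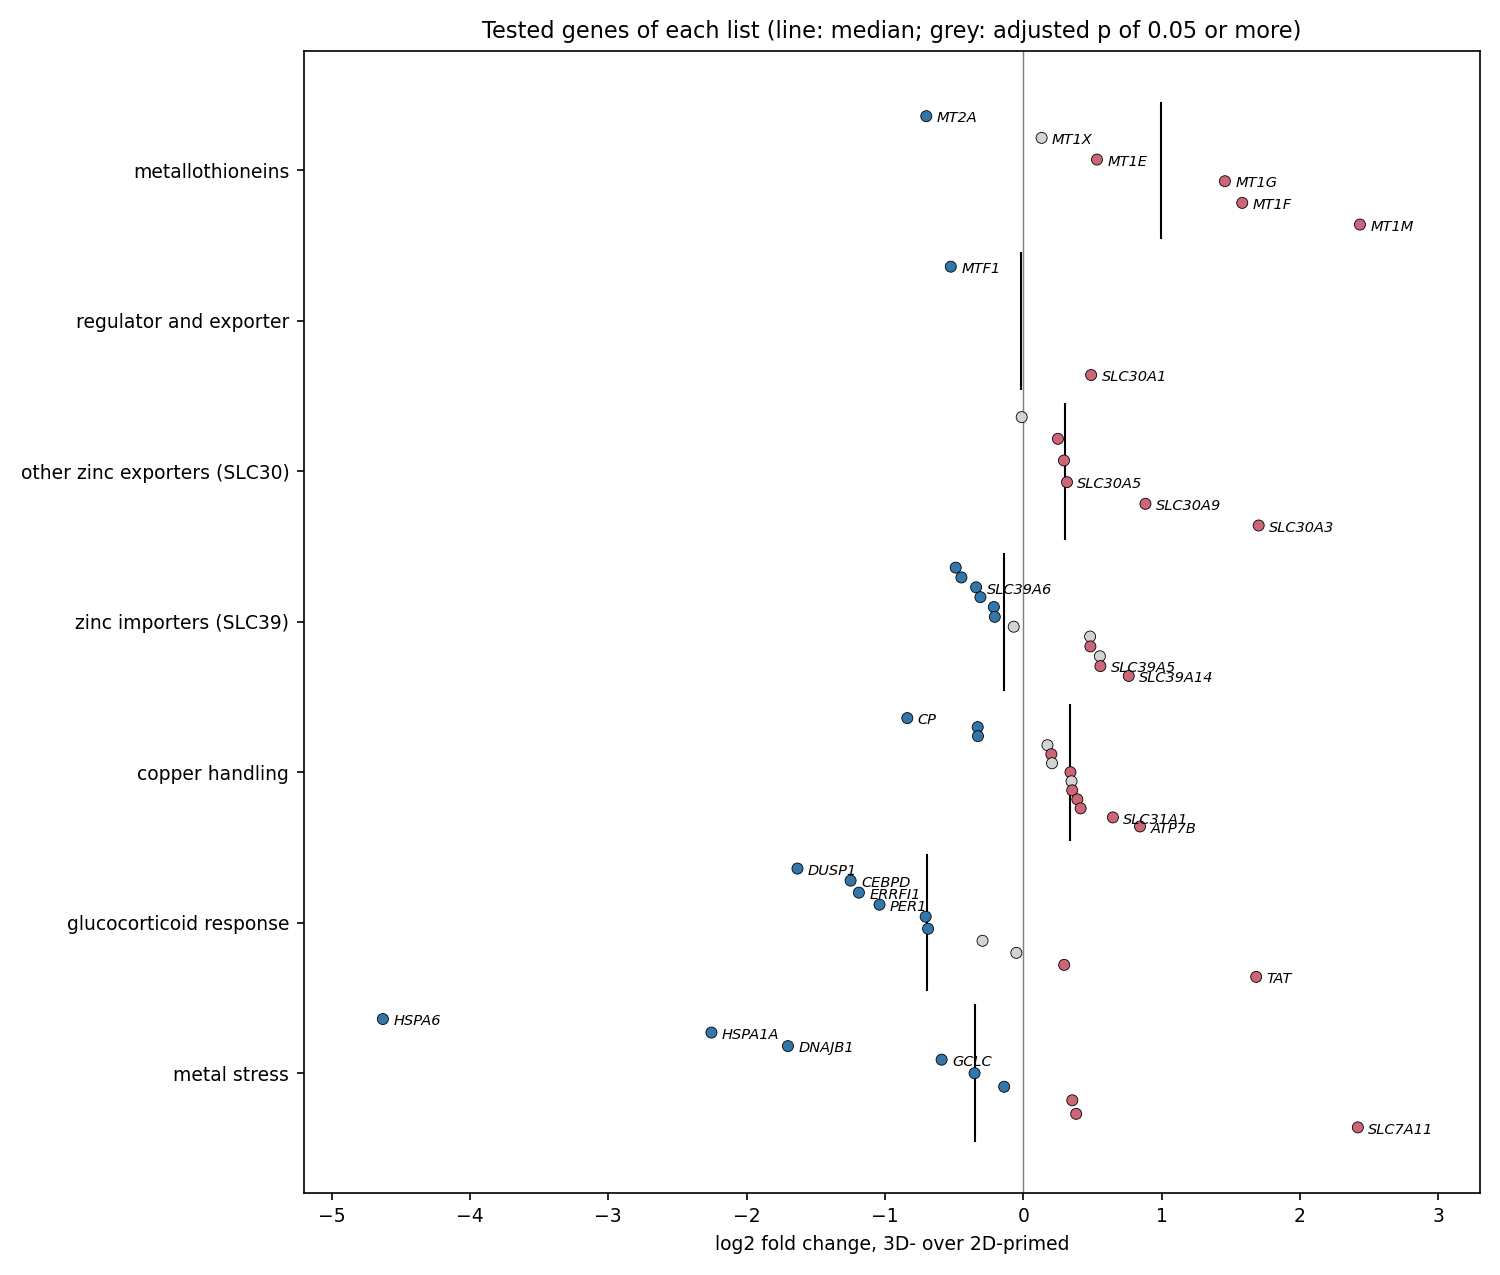
Log2 fold change (3D-primed over 2D-primed) of every tested gene of 7 lists, in red where called higher, blue where called lower and grey where not called, with a black line at the median of each list. The median is 0.996 for the metallothioneins, 0.305 for the other zinc exporters, -0.137 for the zinc importers and -0.697 for the glucocorticoid response genes.

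Metallothioneins also bind copper, and of 13 copper handling genes, all tested, 7 were called higher, 3 lower (ATP7A, COX17 and CP) and 3 not (SLC31A2, COMMD1 and SCO2; median log2 fold change 0.341). These 10 calls stand beside 63.9% of all genes called and numbered 10 to 12 over the alternatives. SLC31A1, the copper importer of the plasma membrane, rose 1.57-fold from 119 ± 4.87 to 187 ± 6.15 CPM (edgeR, Benjamini-Hochberg adjusted p = 5.9e-07). ATP7B, the copper pump of hepatocytes that is mutated in Wilson disease, rose 1.79-fold from 69.0 ± 6.06 to 124 ± 5.19 CPM (edgeR, Benjamini-Hochberg adjusted p = 1.4e-06). CP, the copper-carrying plasma protein ceruloplasmin, had 546 to 862 CPM in 3D-primed and 1197 to 1263 CPM in 2D-primed libraries and fell 1.79-fold (edgeR, Benjamini-Hochberg adjusted p = 7.5e-05).

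MT2A can be induced by glucocorticoids, and of 11 genes listed for that response 10 were tested, 6 were called lower, 2 higher (TAT and SGK1) and 2 not (FKBP5 and TSC22D3; median log2 fold change -0.697), beside 31.6% of all genes called lower and 32.4% called higher. SGK1 was marginal (edgeR, Benjamini-Hochberg adjusted p = 0.048), and its call was lost under 8 of 17 alternatives, 6 of which left out a library (2D-primed replicate 2, 3 or 4 or 3D-primed replicate 1, 2 or 3). NR3C1, which encodes the glucocorticoid receptor, was among the lower genes. DUSP1, a phosphatase of MAP kinases, fell 3.10-fold from 213 ± 17.8 to 68.7 ± 11.2 CPM (edgeR, Benjamini-Hochberg adjusted p = 5.5e-07). CEBPD, a transcription factor of the acute phase, fell 2.38-fold (log2 fold change -1.25), ERRFI1, an inhibitor of the EGF receptor, 2.28-fold (-1.19), and the clock gene PER1 2.05-fold (-1.04), with edgeR Benjamini-Hochberg adjusted p of at most 1.3e-05. TAT, the tyrosine aminotransferase of liver, went the other way, rising 3.21-fold from 6.97 ± 0.355 to 22.4 ± 3.85 CPM (edgeR, Benjamini-Hochberg adjusted p = 8.9e-07). Several of these genes answer to other signals as well.

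Of 10 genes that respond to metal or oxidative stress, 9 were tested, 3 were called higher (GCLM, SLC7A11 and SRXN1) and 6 lower (median log2 fold change -0.352), beside 63.9% of all genes called. TXNRD1, among the lower genes, lost its call under 5 of 17 alternatives, among them the replicate block (edgeR, Benjamini-Hochberg adjusted p = 0.057) and leaving out 2D-primed replicate 1 or 3. The 3 tested heat shock genes fell. HSPA6 had 16.7, 5.27, 5.82 and 4.39 CPM in 2D-primed and 0.302, 0.177, 0.645 and 0.119 CPM in 3D-primed libraries (log2 fold change -4.63 ± 0.581 SE; edgeR, Benjamini-Hochberg adjusted p = 5.4e-05). HSPA1A had 16.2, 5.10, 6.80 and 5.95 CPM in 2D-primed and 2.38, 1.95, 0.896 and 1.91 CPM in 3D-primed libraries (log2 fold change -2.25 ± 0.406 SE; edgeR, Benjamini-Hochberg adjusted p = 6.6e-04). Replicate 1 was the highest 2D-primed library in both genes, and without it their log2 fold changes were -4.00 and -1.74. Without 3D-primed replicate 3 that of HSPA6 was -5.29. HSPA1A is uncertain because its near-identical copy HSPA1B, in the same region of chromosome 6 as SLC39A7, was listed at 0 in all 8 libraries. DNAJB1, a co-chaperone, fell 3.25-fold from 446 ± 144 to 137 ± 8.72 CPM (edgeR, Benjamini-Hochberg adjusted p = 1.7e-05), with 2D-primed replicate 1 again the highest (656 CPM against 336 to 421 CPM) and a log2 fold change of -1.46 without it.

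Genes of glutathione supply, which also buffers metals, split. SLC7A11, the cystine importer, had 17.0, 14.4, 18.1 and 15.7 CPM in 2D-primed and 73.4, 91.3, 95.6 and 88.7 CPM in 3D-primed libraries. It rose 5.35-fold without overlap (log2 fold change 2.42 ± 0.0945 SE; edgeR, Benjamini-Hochberg adjusted p = 3.5e-08). GCLC, the catalytic subunit of the enzyme that starts glutathione synthesis, fell 1.51-fold from 163 ± 8.73 to 108 ± 6.61 CPM (edgeR, Benjamini-Hochberg adjusted p = 6.1e-06).

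The profiles most like that of the summed metallothioneins were sought among genes of at least 10 CPM, by the root mean square distance of centred log2 CPM over the 8 libraries. The nearest were GMDS (0.0656), SRARP (0.0669), ACSF2 (0.067), TMEM147 (0.0699) and PTGES2 (0.0782), and none of these 5 was called. For the summed MT1 genes they were QPRT (0.0789), EPHA1 (0.0872), SULT1A1 (0.104), GLTPD2 (0.106) and TMEM177 (0.107), whose log2 fold changes ran from 0.84 to 0.95. These distances describe 8 libraries.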

How the data were processed

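The authors quantified read pairs with Salmon on Ensembl human cDNA (GRCh38) and summed transcripts to genes with tximport. The deposited values are estimated counts per gene, whole numbers that are not scaled to depth, 1 file per library. Whether tximport corrected these counts for the length of the transcripts is not given in the sources used here.

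Groups were taken from the library titles. Of 38032 identifiers, 34977 were found in GENCODE release 44 and 29661 carried a gene name. The test covered genes that reached 10 counts in 2 or more libraries and was run in edgeR 4.0.16 (R 4.3.3) with TMM scaling, glmQLFit and glmQLFTest, and p was adjusted over all 13943 genes by the Benjamini-Hochberg method (threshold 0.05). The SE is the size of the log2 fold change divided by the square root of F. The metallothionein sum replaced its genes in the table and was fitted with all others. Shares and ratios were compared by exact permutation tests (SciPy 1.17.1). Profile distances used a pseudocount of 0.5 CPM. The pipeline was tested on simulated data.

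The 9 genes are named, with every locus of the list of other metallothioneins that had a count, the 3 tested genes with the smallest p of each further list, called genes of these lists with at least 2-fold change, and the 5 nearest profiles. Other names fill out a count of 5 or fewer or were chosen after their values were seen (NR3C1, HSPA1B, SLC39A7, MT3, MT1HL1, MT2P1, TXNRD1 and the cell type markers). Members and lists were chosen with earlier results of these data known.

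Alternatives were DESeq2 1.42.0, limma-voom (limma 3.58.1), median-of-ratios, total-count and upper-quartile scaling, filterByExpr, no count filter, a minimum of 10 counts in every library, each library left out once, a block for the replicate number, other sums and denominators, and other gene lengths. The sum without MT2A under every setting, its nearest profiles and the canonical length were added after seeing the data.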

Additional observations from a re-analysis of the deposited data

Results flagged for a closer look

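In a group of 4 libraries, the gap between the most extreme value and its nearest neighbour was set against the whole range. Chance marks about 1 in 20 groups in this way, and 4 of 60 groups were marked. MT2A was marked in 3D-primed cells, where replicate 1 had 253 CPM and the other 3 had 182 to 188 CPM, a gap of 0.924 of the range. The same library was the highest of its group in all 6 tested metallothioneins, at 1.27 (MT1F) to 1.39 times (MT1M) the mean of the other 3, while for SLC30A1 and MTF1 it was not. DNAJB1 was marked in 3D-primed cells, where replicate 1 had 124 CPM and the others 141 to 142 CPM. HSPA1A was marked in 2D-primed cells, where replicate 1 had 16.2 CPM and the others 5.10 to 6.80 CPM. HSPA6 was marked in 2D-primed cells, where replicate 1 had 16.7 CPM and the others 4.39 to 5.82 CPM.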

How the results depend on the processing

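The 7 calls among the 8 tested genes held in sign and threshold under all 17 alternatives, and MT1X was called under none. MT1M ran from 2.29 to 2.56, MT2A from -0.83 to -0.65, MTF1 from -0.55 to -0.47 and SLC30A1 from 0.425 to 0.541 on the log2 scale. The log2 fold change of the summed metallothioneins (-0.0226) turned to 0.00379 with total counts, 0.0271 with upper quartile scaling and 0.87 without MT2A. Leaving out 1 library at a time moved it from -0.147 to 0.0209, with a call (edgeR, Benjamini-Hochberg adjusted p = 0.040) without 3D-primed replicate 1 and positive values without replicate 2 (0.0154) or 3 (0.0209) of that group. The causes were not tested. The replicate number used as a block gave 8490 called genes against 8916 and, of the genes named from the lists, changed the call of TXNRD1 only. Same-numbered libraries did not deviate together (correlations of -0.0439 to 0.088), so that the number was not taken as a pairing. With the other loci in the denominator or with 1 library left out, the differences in share kept their sign and moved by less than the SD pooled over both groups. Leaving out a library gives 3 against 4, where the exact test cannot go below 0.057, so that these are values with no test. The scalings moved the median log2 fold change of all genes by less than 0.1. Depth limits MT1H, with at most 5 counts, and MT1M, with 14 to 24 counts in 2D-primed libraries.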
